A study of Mus musculus with 9 samples.

Results

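Nuclear encoded genes of oxidative phosphorylation were examined in the livers of 9 male mouse offspring aged 20 weeks and fasted for 4 h. The genes were chosen by symbol: every nuclear protein-coding gene whose symbol starts with Nduf, Uqcr, Cox4, Cox5, Cox6, Cox7, Cox8 or Atp5, together with Sdha, Sdhb, Sdhc, Sdhd, Cyc1 and Cycs. This rule gave 96 of the 55335 genes in the deposited table and 96 of its 21886 nuclear protein-coding genes. Of these, 44 were counted with complex I, 4 with complex II, 9 with complex III, 1 was cytochrome c, 20 were counted with complex IV and 18 with complex V. The symbols also take in proteins that are not subunits, such as the 8 Ndufaf assembly factors of complex I and Atp5s, a factor of the ATP synthase. Another 13 genes with these prefixes are annotated as pseudogenes or non-coding RNA and were left out, although reads from near-identical copies could have been split between them and the genes kept.

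The 3 groups held 3 mice each, all of the B6D2F2 strain and, per the methods, all fed chow. The NC-chow (here NC) mice were conceived naturally, the IVF-chow (IVF) mice by in vitro fertilization with transfer of fresh embryos at the 2-cell stage, and the FET-chow (FET) mice by the same fertilization with embryos frozen at that stage by slow freezing and thawed before transfer. Both kinds of embryo were carried by ICR recipients, so the NC group differed from the other two also in having no embryo culture and no transfer. The labels do not say which mice were littermates, so a p-value here measures the spread between these mice only. Bulk liver RNA was sequenced, and the values are FPKM (fragments corrected for gene length and for the mapped fragments of the library). In bulk RNA, fewer cells of a type and less RNA per cell cannot be told apart.

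Oxidative phosphorylation takes place in the inner mitochondrial membrane. Complex I accepts electrons from NADH and complex II from succinate, ubiquinone carries them to complex III, cytochrome c carries them on to complex IV, and complex IV reduces oxygen to water. Complexes I, III and IV pump protons, and complex V, the ATP synthase, uses the proton gradient to make ATP. Most subunits are encoded in the nucleus and imported, and a small set is encoded in mitochondrial DNA. In the fed and fasted liver the chain provides ATP for gluconeogenesis, urea synthesis and protein secretion, and it re-oxidises the NADH made by fatty acid oxidation. Transcription factors long associated with the nuclear genes include NRF1, GABPA (NRF2), YY1 and ERR alpha.

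Promoter windows from RefSeq (build GRCm38.p6, 250 bases before and 50 after the annotated start) were matched for 77 of the 95 member symbols, which gave 82 windows. The NRF1 motif, searched on both strands as GCGCA, any base and GCGC, was found in 20 of them (24.4%), against 6.6% of the 20140 windows of protein-coding genes. The GABPA motif CCGGAAG was found in 18 (22%, against 11.9%) and the YY1 motif AAGATGG in 12 (14.6%, against 6.3%). At least 1 of these 3 motifs was present in 43 windows (52.4%), against 22.2% of protein-coding windows, and 4 windows held both NRF1 and GABPA matches. The ERR alpha motif TCAAGGTCA was found in 2 windows (2.4%, against 0.3%), in the promoters of Sdhd and Atp5g3. The SP1 motif GGGCGG was found in 45.1% of these windows and 47.8% of protein-coding windows, and TATAAA in 9.8% and 12.2%. The median GC content was 58.5% in these windows and 57.0% in protein-coding windows. A match of letters is a description of the window and was not tested as a binding site.

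**Figure D1:**
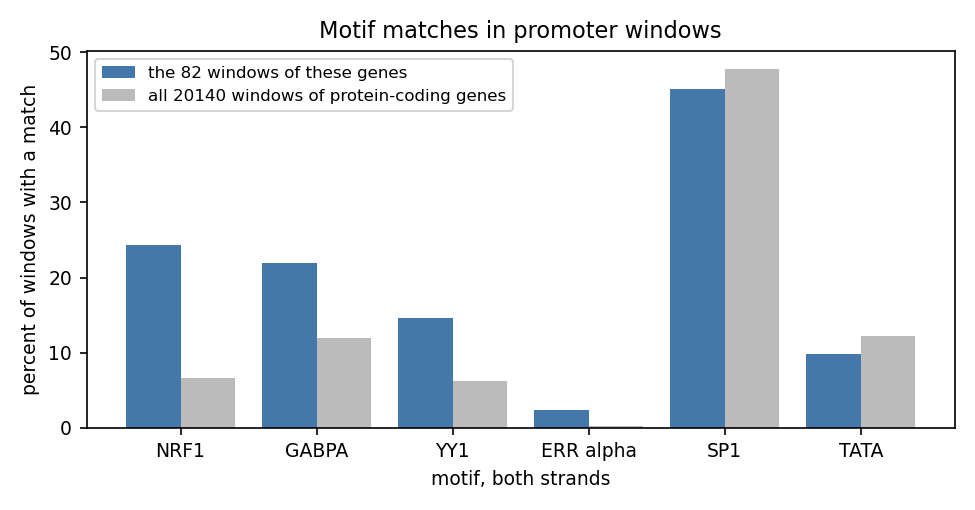
The share of promoter windows (y axis, percent) that hold each motif on either strand (x axis), for the 82 windows of these genes (blue) and all 20140 windows of protein-coding genes (grey). NRF1 matches lay in 24.4% against 6.6%, while SP1 matches lay in 45.1% against 47.8%.

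The windows of 7 genes are shown because they carry these motifs in each complex or because they belong to a pair of isoforms that the liver data separate. They were chosen after the motif counts had been seen. Capitals mark every NRF1, GABPA, YY1 and TATAAA match, on either strand, and positions are counted from the annotated start, with no position 0. All are read 5′ to 3′ on the strand of the gene.

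Ndufa6: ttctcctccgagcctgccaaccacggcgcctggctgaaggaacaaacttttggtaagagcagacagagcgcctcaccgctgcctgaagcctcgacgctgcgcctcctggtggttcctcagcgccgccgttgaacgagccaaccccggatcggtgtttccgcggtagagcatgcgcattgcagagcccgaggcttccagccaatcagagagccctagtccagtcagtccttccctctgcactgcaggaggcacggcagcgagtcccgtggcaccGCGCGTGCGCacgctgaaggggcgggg

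Sdhb: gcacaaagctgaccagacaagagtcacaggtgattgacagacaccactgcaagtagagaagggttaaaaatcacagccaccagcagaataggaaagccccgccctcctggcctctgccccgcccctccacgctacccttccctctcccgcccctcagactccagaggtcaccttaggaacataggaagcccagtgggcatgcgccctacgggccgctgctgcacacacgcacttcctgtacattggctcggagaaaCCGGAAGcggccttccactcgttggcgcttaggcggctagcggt

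Uqcr11: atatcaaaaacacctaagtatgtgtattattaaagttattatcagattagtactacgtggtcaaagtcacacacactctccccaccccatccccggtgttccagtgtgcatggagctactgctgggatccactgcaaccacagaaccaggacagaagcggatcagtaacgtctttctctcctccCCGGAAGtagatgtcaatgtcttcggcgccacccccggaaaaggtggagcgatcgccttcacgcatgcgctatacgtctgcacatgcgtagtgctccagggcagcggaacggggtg

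Cox6a1: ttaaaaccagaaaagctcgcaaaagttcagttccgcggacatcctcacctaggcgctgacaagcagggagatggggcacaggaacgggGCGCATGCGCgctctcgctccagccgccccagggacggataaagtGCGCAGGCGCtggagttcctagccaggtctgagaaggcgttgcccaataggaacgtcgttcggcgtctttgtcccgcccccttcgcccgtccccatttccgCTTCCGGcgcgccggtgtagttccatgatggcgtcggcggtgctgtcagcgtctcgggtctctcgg

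Cox8a: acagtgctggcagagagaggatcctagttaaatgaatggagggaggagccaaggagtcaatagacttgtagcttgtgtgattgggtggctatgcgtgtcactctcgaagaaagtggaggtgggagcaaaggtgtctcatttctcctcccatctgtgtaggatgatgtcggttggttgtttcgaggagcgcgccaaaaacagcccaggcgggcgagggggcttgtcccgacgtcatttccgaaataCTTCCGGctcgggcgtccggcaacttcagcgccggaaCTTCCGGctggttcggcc

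Cox8b: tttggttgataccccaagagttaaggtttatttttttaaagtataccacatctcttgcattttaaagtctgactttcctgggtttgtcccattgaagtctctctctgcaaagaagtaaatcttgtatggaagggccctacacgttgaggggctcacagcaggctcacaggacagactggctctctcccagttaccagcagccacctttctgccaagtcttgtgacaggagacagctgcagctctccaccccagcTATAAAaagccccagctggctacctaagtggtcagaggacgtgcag

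Atp5e: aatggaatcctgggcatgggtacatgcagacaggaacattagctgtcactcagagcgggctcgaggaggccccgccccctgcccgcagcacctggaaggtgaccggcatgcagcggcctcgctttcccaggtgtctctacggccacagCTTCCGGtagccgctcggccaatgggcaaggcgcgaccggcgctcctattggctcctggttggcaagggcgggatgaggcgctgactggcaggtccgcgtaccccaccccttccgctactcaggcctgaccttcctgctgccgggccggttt

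The window of Ndufa6 (chr15:82354242-82354541, minus strand), an accessory subunit of complex I, holds 1 NRF1 match that starts 24 bases into the transcript. Sdhb (chr4:140961021-140961320, plus strand), the iron-sulfur subunit of complex II, holds a GABPA match from position 7, and Uqcr11 (chr10:80406772-80407071, minus strand), a small subunit of complex III, holds one from position -66. Cox6a1 (chr5:115348909-115349208, minus strand), the form of complex IV subunit 6a used outside heart and skeletal muscle, holds NRF1 matches from positions -162 and -117 and a GABPA match from -16. Atp5e (chr2:174464052-174464351, minus strand), the epsilon subunit of the ATP synthase, holds a GABPA match from -102. The isoform pair differed: Cox8a (chr19:7217567-7217866, minus strand), the widely expressed form of subunit 8, holds 2 GABPA matches, from -5 and 33, whereas Cox8b (chr7:140900397-140900696, minus strand), the heart and skeletal muscle form, holds neither motif and has a TATAAA match from position 5. Other pairs did not all differ in this way. Cox6b1 held a GABPA match and Cox6b2 none, but Cox7a2, Cox7a1, Cox7b and Cox7b2 all lacked NRF1, GABPA and YY1 matches.

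Libraries differed in depth and in composition. Low FPKM values moved in steps of 1 fragment, which put the depth at 6640000 to 13370000 mapped fragments in NC, 3890000 to 8430000 in IVF and 2020000 to 2920000 in FET. Every FET library was thus shallower than every IVF and NC library, so depth and the FET group cannot be told apart. NC mice 5 and 6 were the deepest libraries, at 11970000 and 13370000 mapped fragments. Their sheet numbers follow each other and stand apart from those of the other 7 mice, which lie close together. Whether these 2 libraries were handled apart is not stated in the sources used here. The part of such handling in both comparisons with NC was not tested. Nuclear protein-coding genes held from 4.36% (IVF mouse 2) and 4.41% (FET mouse 4) to 29.3% (IVF mouse 4) of all FPKM, and the 3 most abundant non-coding genes from 3.49% to 61.9%. The part of these differences in the results below was not tested, so the counts and medians over these genes are also given after each mouse was rescaled to 1000000 FPKM on nuclear protein-coding genes, written as ppm. All 7 hepatocyte markers were above 0 in every mouse, but their levels differed, with albumin (Alb) between 1324 and 20585 FPKM, Apob between 2.62 and 72.2, lowest in FET mice 4 and 2, and Cps1 between 7.60 and 53.3, lowest in FET mouse 4. The 5 erythroid markers summed to 335.1 to 849.9 FPKM in NC, 78.0 to 388.5 in IVF and 177.3 to 590.6 in FET. The 6 Kupffer cell markers summed to 78.3 FPKM in FET mouse 2 and to 4.07 to 32.1 FPKM in the other 8 mice. Their shares of nuclear protein-coding FPKM were 0.0857%, 0.0187% and 0.0238% in FET mice 2, 3 and 4. These lay above every NC mouse (0.014% to 0.0181%) and every IVF mouse (0.0104% to 0.0179%). Of the 4 Kupffer markers tested, 2 were lower in FET than in NC as deposited. The part of these cells in the results below was not tested.

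The 96 genes summed to 2282, 3486 and 4168 FPKM in NC mice 1, 5 and 6, to 671.7, 2993 and 7342 FPKM in IVF mice 2, 3 and 4, and to 2766, 3495 and 891.5 FPKM in FET mice 2, 3 and 4. The lowest and the highest sum were both in the IVF group, and every pair of groups overlapped. As a share of nuclear protein-coding FPKM, the genes took 2.43%, 2.52% and 2.66% in NC, 1.71%, 2.74% and 3.19% in IVF, and 3.03%, 2.70% and 1.96% in FET. The shares differed less than the sums, and the 3 NC mice lay inside the range of both other groups. The mice lowest in share, IVF mouse 2 and FET mouse 4, were those lowest in nuclear protein-coding FPKM.

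**Figure D2:**
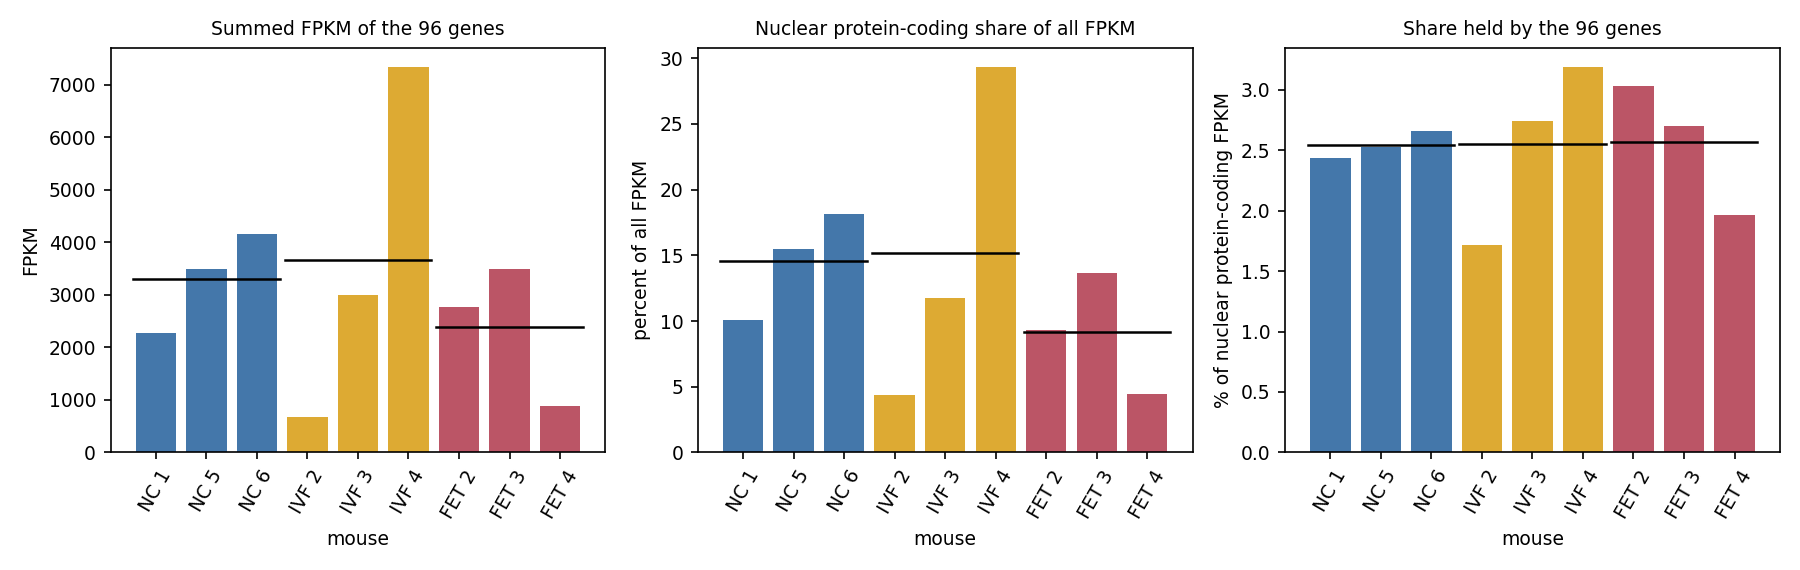
Each bar is 1 mouse (x axis; NC blue, IVF yellow, FET red) and each black line a group mean. The panels give the summed FPKM of the 96 genes, the percent of all FPKM on nuclear protein-coding genes, and the percent of nuclear protein-coding FPKM held by the 96 genes; the sum spans 671.7 to 7342 FPKM while the share spans 1.71% to 3.19%.

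Of the 96 genes, 93 were above 0 in at least 1 mouse and 77 in all 9, and 85 had a mean of at least 1 FPKM over the mice and were tested. The other 11 were 4 Ndufaf assembly factors (Ndufaf2, Ndufaf3, Ndufaf5 and Ndufaf7), the complex IV isoforms Cox4i2, Cox6b2, Cox7b2, Cox8b and Cox8c, Atp5s, and the second of the 2 Ensembl entries that carry the symbol Atp5o. Cox7b2, Cox8c and that second Atp5o entry were listed at 0 in all 9 mice. Between 5 and 14 of the genes were listed at 0 in a mouse, with 14 in FET mice 2 and 4, where 1 fragment on a gene of the median length would be 0.71 and 0.49 FPKM.

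Levels, which FPKM gives per length, differed widely within each complex. Complex III had the highest median of the multi-gene complexes, 71.3 FPKM (mean over 9 mice), against 17.9 for complex I, 11.4 for complex II, 13.8 for complex IV and 14.4 for complex V. Without its 7 isoforms of other tissues, complex IV had a median of 50.8 FPKM over 13 genes, second to complex III, and complex I had 20.8 without its Ndufaf factors. The most abundant transcript was Uqcrq, a small subunit of complex III, with 175.0, 255.5 and 278.8 FPKM in NC, 61.0, 303.4 and 640.8 in IVF, and 169.7, 426.6 and 91.2 in FET. Its IVF mice alone spanned more than both other groups. Atp5e followed with a mean of 168.2 FPKM, Uqcr11 with 161.1, Cox6b1, which contacts cytochrome c on complex IV, with 138.6, and Cox7c, another small complex IV subunit, with 120.0. In each of complexes I, III and V the top transcripts encode small subunits that do not carry the redox centres or the catalytic site. Across the 85 genes tested, coding transcript length and mean FPKM had a Spearman rho of -0.33, a description across genes that share the same libraries.

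The subunits that carry the redox centres or catalyse spanned a wide range. The 7 core subunits of complex I ranged from 1.78 FPKM for Ndufs1, the large iron-sulfur subunit, to 61.7 FPKM for Ndufs8, with a median of 16.7, and the 29 accessory subunits had a median of 22.3. The Ndufaf assembly factors lay lowest, with a median of 1.34 and a highest mean of 5.59 FPKM for Ndufaf8. In complex II, Sdhb had 36.8 FPKM, the membrane anchors Sdhd and Sdhc 13.6 and 9.14, and the flavoprotein Sdha 6.52. In complex III, Uqcrfs1, the Rieske iron-sulfur protein, had 71.3 FPKM, Cyc1 (cytochrome c1) 21.8, and the core proteins Uqcrc1 and Uqcrc2 17.0 and 11.8. Cycs, the soluble electron carrier cytochrome c, had 26.3 FPKM. In the F1 part of complex V, the catalytic beta subunit Atp5b had 11.8 FPKM, the alpha subunit Atp5a1 21.1, gamma Atp5c1 31.0, delta Atp5d 59.2 and epsilon Atp5e 168.2. The 2 F1 subunits that the enzyme holds in most copies, alpha and beta, thus had the lowest transcript levels of the 5. Their coding transcripts were also the longest of the 5, at 2572.5 and 1916 bases, against 421 to 1000 for the others. The part of transcript length in this order was not tested. These orders are descriptions of means, and neighbours in them were not tested.

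**Figure D3:**
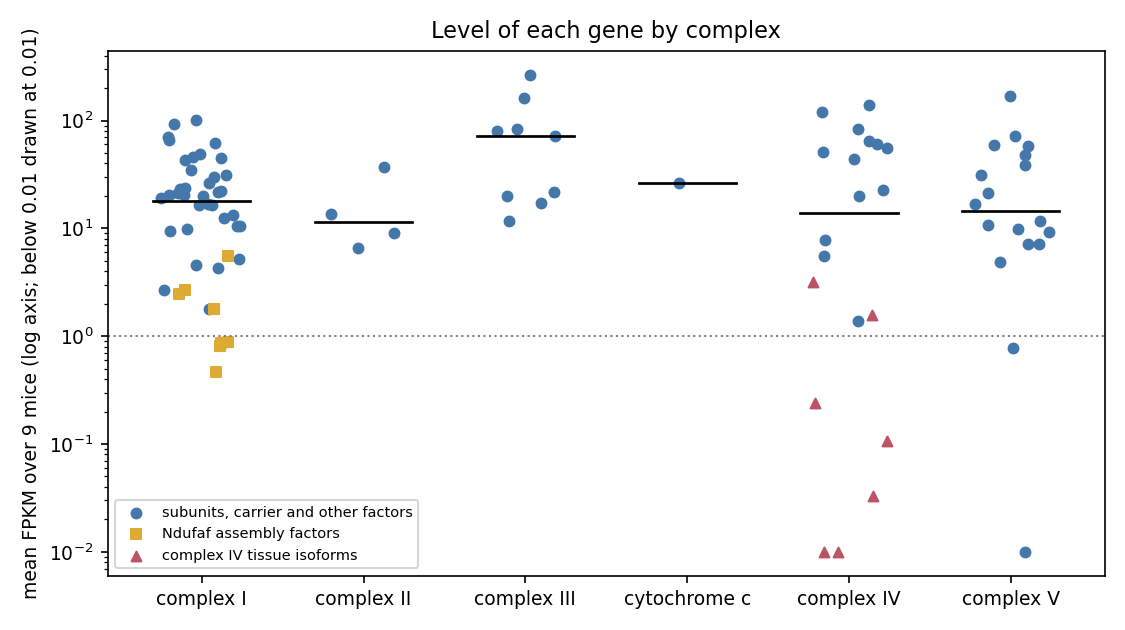
Each point is 1 of the 96 genes, placed by complex (x axis) and by its mean FPKM over 9 mice (y axis, log scale; values below 0.01 are drawn at 0.01). Black bars are medians of each complex, the dotted line marks 1 FPKM, and the assembly factors (squares) and the tissue isoforms of complex IV (triangles) lie at the bottom of complexes I and IV.

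Complex IV has subunits with a liver form and a form for other tissues, and the lung and testis forms were low or listed at 0. Cox4i2, the lung form of subunit 4, was above 0 in 2 mice at no more than 0.86 FPKM, and Cox6b2, the testis form of 6b, was above 0 in 2 mice at no more than 0.23 FPKM. The testis forms Cox7b2 and Cox8c were listed at 0 throughout. Their liver counterparts Cox4i1, Cox6b1, Cox7b and Cox8a had means between 56.2 and 138.6 FPKM.

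The heart and skeletal muscle forms were present in a few mice. Cox6a2 was listed at 12.4 FPKM in NC mouse 1, 24.9% of the sum of Cox6a1 and Cox6a2, at 1.54 FPKM in IVF mouse 4 and 0.18 in IVF mouse 2, and at 0 in the other 6. Cox7a1 was listed at 3.16, 1.73 and 1.98 FPKM in NC, at 0, 0 and 21.9 in IVF, and at 0 in all FET mice, with the highest value in IVF mouse 4, 27.3% of the sum of Cox7a1 and Cox7a2. Cox8b was above 0 in IVF mouse 4 only, at 2.18 FPKM.

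The 4 skeletal muscle markers (Acta1, Ckm, Mylpf and Myh4) summed to 66.3 FPKM in NC mouse 1 and to 15.9 in IVF mouse 4, the 2 mice with the highest Cox6a2, and to between 0 and 3.86 FPKM in the other 7. Myh4, a defining marker of fast fibres, was at 2.09 FPKM in NC mouse 1 and 0 in IVF mouse 4. The 4 fat markers summed to between 0 and 1.32 FPKM, with Ucp1 at 0 in all mice. Cox7a1 was the highest in the mouse with the second highest marker sum, and the part of muscle RNA in these values was not tested.

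**Figure D4:**
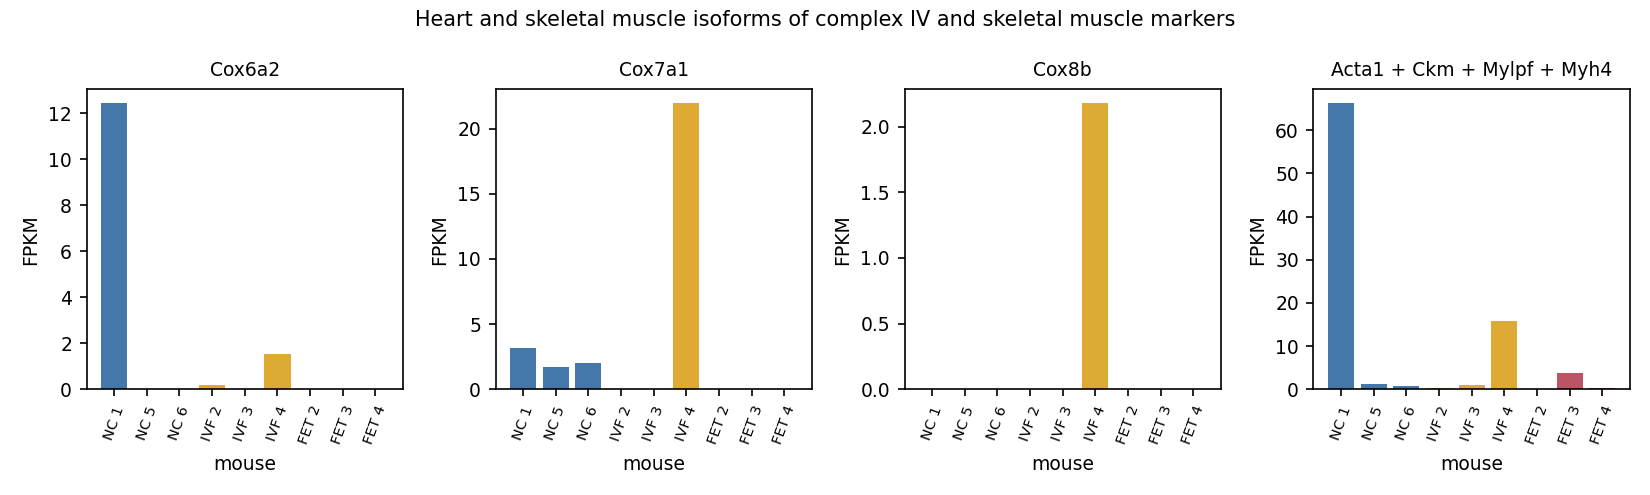
FPKM (y axes, linear, each with its own scale) of Cox6a2, Cox7a1, Cox8b and the summed skeletal muscle markers in each of the 9 mice (x axis; NC blue, IVF yellow, FET red). Cox6a2 and the markers are highest in NC mouse 1 (12.4 and 66.3 FPKM), and Cox7a1 and Cox8b in IVF mouse 4 (21.9 and 2.18 FPKM).

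Other families with several genes were also compared within each mouse. Ndufa4l2, a paralog of the complex IV subunit Ndufa4 that is induced by hypoxia, made up 1.55% to 4.47% of the 2 transcripts in NC and IVF mice, and 24.3%, 9.27% and 0% in FET mice 2, 3 and 4. The FET values thus lay on both sides of the other groups. The 3 genes for the same c subunit of the ATP synthase ring, Atp5g1, Atp5g2 and Atp5g3, were all above 0 in every mouse. Atp5g1 made up 21.7% to 40.3% of their sum, Atp5g2 16.0% to 59.2% and Atp5g3 15.6% to 54.0%, with both extremes of Atp5g3 in the FET group.

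The comparison of FET with NC asks whether embryo freezing, with in vitro fertilization, goes with other levels of these genes in the adult liver. No member passed an adjusted p of 0.05 (limma, Benjamini-Hochberg over 6755 genes), where 0.237% of all genes tested passed, and the smallest adjusted p among members was 0.269. At an unadjusted p under 0.05, 5 members were lower and 0 higher, against 10.1% and 1.88% of all genes. They were Ndufc1, Cox7a1, Ndufa8, Ndufb3 and Ndufc2, of which the 4 other than Ndufa8 were listed at 0 in at least 1 FET mouse. The log2 fold change was negative for 74 of the 85 members (87.1%, against 74.4% of all genes), with a median of -0.67 against -0.46 for all genes. Of the 7 hepatocyte markers, 6 were negative, with a median of -1.37, and -0.73 after rescaling, and 0 passed an unadjusted p under 0.05. Every FET mouse lay below every NC mouse for 2 of them as deposited and 1 after rescaling (17.1% and 11.5% of all genes). The part of these markers in the members' values was not tested. Without FET mouse 4 the members' median was -0.13, and without FET mouse 3 it was -1.06. After rescaling to nuclear protein-coding genes the median was -0.14, against -0.18 for all genes, and 48 members were negative, against 56.8% of all genes. With median-ratio scaling, which divides each mouse by its median ratio to the geometric mean of each gene over the mice, the median was -0.25 against -0.14 for all genes, and with quantile normalization -0.26 against 0.003, so the place of the members relative to all genes depended on the scaling. On the nuclear protein-coding scale, 2 members were higher and 7 lower at an unadjusted p under 0.05 (limma). The shares of all genes were 6.53% and 9.15%. There 0 members passed the adjusted threshold, against 0.207% of all genes.

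For 10 of the 85 members tested every FET mouse lay below every NC mouse, and for 0 every one lay above, against 17.1% and 1.98% of all genes. Single libraries moved these counts: 40 members lay below and 1 above without NC mouse 1 (40.3% and 4.47% of all genes), 28 lay below without FET mouse 3 (36.1%), and 13 lay above without FET mouse 4 (14%). Of the 11 members not tested, Ndufaf7 also lay below as deposited, with 0.26, 0.72 and 0.86 FPKM in NC and 0, 0 and 0.19 in FET. After rescaling its FET and NC mice overlapped. With all mice, the 10 were Ndufa6, Ndufc1, Sdhc, Uqcrb, Uqcrc2, Cox5a, Cox6c, Cox7a1, Cox7b and Atp5a1. After rescaling, 9 members lay below (11.5% of all genes) and 7 above (9.99%), and with median-ratio scaling 13 lay below (13.6%) and 3 above (7.98%). Of the 10, Ndufa6, Ndufc1, Uqcrb, Uqcrc2, Cox5a, Cox7a1 and Cox7b were below on both scales, and Ndufa8 and Atp5c1 after rescaling only. Those above after rescaling were Ndufa3, Ndufb8, Ndufb10 and Ndufs6 of complex I, Cyc1, Cox7a2l and Atp5l. Ndufb8, Ndufb10, Ndufs6, Ndufa3, Atp5l, Uqcrb, Cox5a, Cox6c and Atp5a1 were named after their values were seen.

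Ndufa6 (chr15:82350140-82354322, minus strand, GRCm38), a LYR-motif accessory subunit of the matrix arm of complex I, was the only member for which, as deposited, all mice of both other groups lay below all NC mice. It had 31.5, 42.5 and 41.8 FPKM in NC, 4.37, 12.02 and 30.8 in IVF, and 14.3, 18.6 and 5.15 in FET. The highest IVF mouse was close to the lowest NC mouse, and the FET mice were all well below it. The means were 38.6 ± 6.13 (SD, n = 3), 15.7 ± 13.6 and 12.7 ± 6.87 FPKM. On the log2(FPKM + 1) scale the difference was -1.68 ± 0.94 (SE) in FET (limma, adjusted p = 0.476) and -1.59 ± 0.94 in IVF (adjusted p = 1.0). In ppm of nuclear protein-coding FPKM, the NC mice were at 336.2, 307.6 and 266.8, the IVF mice at 111.5, 109.9 and 133.8, and the FET mice at 156.5, 143.9 and 113.6. On that scale NC lay apart from both other groups, which overlapped each other, with differences from NC of -1.14 ± 0.28 in FET and -1.35 ± 0.28 in IVF, and the limma p of 0.00279 and 0.000908 became adjusted p of 0.147 and 0.808. The 2 comparisons share the NC mice, so their likeness is no separate evidence.

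Cox7b (chrX:106015700-106022450, plus strand), a small subunit of complex IV, had 64.5, 94.8 and 126.5 FPKM in NC, 7.68, 35.0 and 128.0 in IVF, and 35.4, 41.3 and 9.99 in FET. FET lay below NC in every mouse, while IVF mouse 4 was the highest of all. The difference was -1.85 ± 1.07 in FET (limma, adjusted p = 0.494) and -1.44 ± 1.07 in IVF (adjusted p = 1.0). In ppm the NC mice were at 687.8, 685.8 and 807.5, the IVF mice at 196.0, 320.3 and 555.6, and the FET mice at 387.5, 319.6 and 220.2, so both groups lay below NC, with adjusted p of 0.227 and 0.976 by limma.

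Uqcrc2 (chr7:120635176-120659524, plus strand), a core protein of complex III, had 14.4, 17.7 and 21.8 FPKM in NC, 4.02, 11.9 and 20.2 in IVF, and 2.57, 7.95 and 5.52 in FET. The FET mice were below every NC mouse, with a difference of -1.66 ± 0.84 (limma, adjusted p = 0.43), and their ppm values of 28.1, 61.5 and 121.7 were also below the lowest NC value of 128.3. Ndufc1 (chr3:51404677-51408988, minus strand), a small accessory subunit of complex I, had 14.4, 12.2 and 16.3 FPKM in NC and 0, 7.59 and 2.63 in FET, where 1 mouse was listed at 0. Its adjusted p of 0.269 by limma was the smallest of all members. Ndufa8, an accessory subunit with twin CX9C motifs, had the lowest log2 fold change, -2.28 ± 1.04 (adjusted p = 0.369 by limma), from 32.4, 78.9 and 104.8 FPKM in NC to 8.18, 42.8 and 5.09 in FET, where the groups overlapped.

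The highest log2 fold change in FET was that of Cox7a2l, which helps join complexes III and IV into supercomplexes. It had 8.16, 3.85 and 2.94 FPKM in NC, 0.57, 11.2 and 10.4 in IVF, and 14.5, 13.7 and 4.28 in FET, a difference of 0.93 ± 0.82 (limma, adjusted p = 0.693). The groups overlapped as deposited. In ppm the FET mice, at 158.8, 106.0 and 94.3, lay above the NC mice, at 87.0, 27.8 and 18.8, with a difference of 1.67 ± 0.74 (adjusted p = 0.318 by limma). The gap between the lowest FET and the highest NC mouse was small beside the spread in either group.

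By complex, the median difference between FET and NC was -0.53 for complex I, -0.56 for complex II, -0.62 for complex III, -1.001 for complex IV and -0.71 for complex V, on the log2(FPKM + 1) scale. All of these lay below the median of all genes. After rescaling they were -0.01, 0.05, 0.00, -0.44 and -0.14, against -0.18 for all genes, so only complex IV lay below it. Of the 15 complex IV genes tested, 13 were negative on either scale, where 74.4% of all genes were negative as deposited and 56.8% after rescaling. The 13 include Cox6a2 and Cox7a1, which are no support here: Cox6a2 passed the filter only through NC mouse 1 (a mean of 0.21 FPKM over the other 8 mice) and Cox7a1 only through IVF mouse 4. Without these isoforms, 11 of 13 were negative on either scale, with medians of -0.97 and -0.40. The genes left still hold Ndufa4l2, which passed the filter only through FET mouse 2 (6.44 FPKM, at most 1.66 in the other 8 mice). The 7 core subunits of complex I were all negative as deposited (-0.79 to -0.23), and 3 of the 7 after rescaling. Each of the 4 complex II genes was also negative as deposited, from -1.24 for Sdhc to -0.04 for Sdha, and 2 of the 4 after rescaling. Cycs had a difference of -0.42, and 0.19 after rescaling. In IVF against NC, the median of the 15 complex IV genes was -0.64, and -0.55 after rescaling. There 14 and 13 of them were negative (68.9% and 56.3% of all genes). In FET against IVF it was -0.29, and 0.01 after rescaling, with 13 and 7 negative (65.4% and 51.7%). The counts of both comparisons again include Cox6a2 and Cox7a1, which were negative on either scale and are no support here either. Differences between the complexes were not tested.

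**Figure D5:**
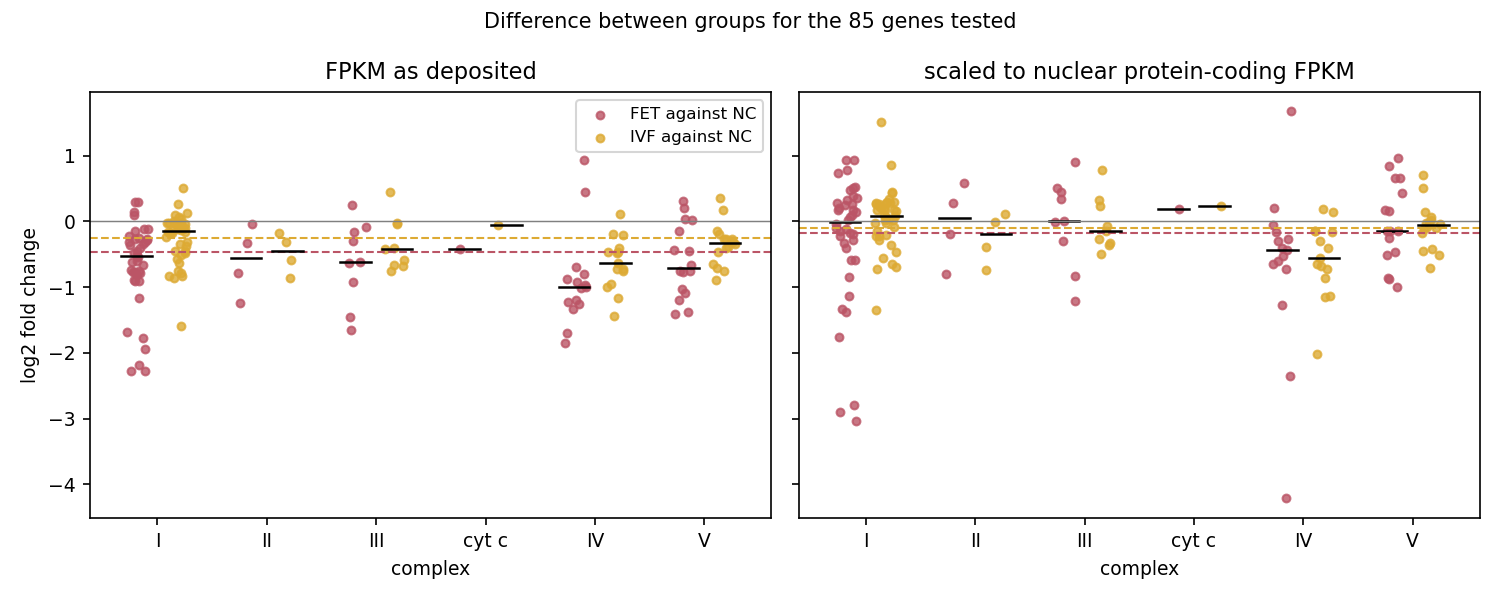
Log2 fold change (y axis) of each of the 85 genes tested, by complex (x axis), for FET against NC (red) and IVF against NC (yellow), with FPKM as deposited on the left and after rescaling to nuclear protein-coding FPKM on the right. Black bars are medians of each complex and dashed lines the medians of all 6755 genes (-0.46 and -0.25 on the left); most points lie below 0 on the left and on both sides of 0 on the right.

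The comparison of IVF with NC concerns fertilization and transfer without freezing. No member passed an adjusted p of 0.05 (limma, against 0.0592% of all genes), the smallest adjusted p was 1.0, and 0 passed an unadjusted p of 0.05, against 1.21% of all genes higher and 2.86% lower. The log2 fold change was negative for 74 members (87.1%, against 68.9% of all genes), with a median of -0.32 against -0.25 for all genes. Of the hepatocyte markers 5 were negative, with a median of -0.25, and 0.09 after rescaling. All 5 erythroid markers (4 globin genes and Alas2) were also negative, with a median of -1.59, and -1.27 after rescaling, where 2 passed an unadjusted p under 0.05; their part in the members' values was not tested. Leaving out IVF mouse 2 gave a median of 0.48, and it was -1.003 without IVF mouse 4. After rescaling the median was -0.04, 48 members were negative (56.3% of all genes), and 0 were higher and 2 lower at an unadjusted p under 0.05, against 1.76% and 2.9% of all genes. Only Ndufa6 had groups that did not overlap as deposited (5.46% of all genes lay below and 0.77% above). The count below was 7 without NC mouse 1 (22.5% of all genes), 3 without IVF mouse 3 (8.91%) and 16 without IVF mouse 4 (26.5%), and 16 lay above without IVF mouse 2 (19.8%). After rescaling, Ndufa6, Uqcrc2, Cox7b, Cox7c, Atp5c1 and Atp5g2 lay below every NC mouse (11.3% of all genes) and Uqcrh, the hinge protein of complex III, above (4.87%). With median-ratio scaling 4 lay below (8.72%) and 2 above (7.25%). The IVF mice of Uqcrh were at 139.6, 334.3 and 159.6 ppm against 133.7, 99.2 and 109.5 in NC.

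The comparison of FET with IVF concerns freezing and thawing, since both groups were fertilized and transferred alike. No member passed an adjusted p of 0.05 (limma, against 0.0888% of all genes), with a smallest adjusted p of 1.0, and 1, Cox7a1, was lower at an unadjusted p of 0.0422, against 2.95% of all genes lower and 1.07% higher. Cox7a1 was listed at 0 in all FET and in 2 of the 3 IVF mice, and its mean over the mice other than IVF mouse 4 was 0.86 FPKM, so it entered the test only through that mouse and its p supports no difference. The log2 fold change was negative for 69 members (81.2%, against 65.4%), with a median of -0.29 against -0.20 for all genes. Of the 7 hepatocyte markers 6 were negative here, with a median of -0.92, and -0.63 after rescaling; 1 passed an unadjusted p under 0.05 and 2 did not overlap between the groups. Of the 5 erythroid markers 4 were positive, with a median of 0.91, and after rescaling all 5 were, with a median of 1.22, 3 of them at an unadjusted p under 0.05 and 4 with no overlap. The part of either list in the members' values was not tested. The median was -1.09 without IVF mouse 2, 0.44 without IVF mouse 4 and 0.21 without FET mouse 4. After rescaling it was 0.01, with 41 members negative (51.7% of all genes), 0 past the adjusted threshold by limma (0.133%), and 0 higher and 1 lower at an unadjusted p under 0.05 (4.13% and 5.55%). The groups overlapped for all 85 members tested as deposited (Ndufaf7, not tested, lay below on both scales), where 2.56% of all genes lay below and 1.27% above, and after rescaling 1 member lay below (6.01%) and 2 above (6.72%), whereas with median-ratio scaling 5 lay below (8.75%) and 0 above (4.47%). As deposited, 21 members lay below without IVF mouse 2 (26.0% of all genes), 1 without IVF mouse 3 (3.33%) and 3 without FET mouse 3 (11.8%), and 2 lay above without FET mouse 4 (5.67%). In none of the 3 comparisons does a p above the threshold show that the levels were alike, as the SE of a member's difference was between 0.60 and 1.155 on the log2(FPKM + 1) scale.

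Mice of 1 group differed widely. Of the variation of a member over the 9 mice, a median of 9.6% lay between groups, against 20.0% for all genes tested. After rescaling it was 21.6% against 28.3%. With no difference, 3 groups of 3 mice would give a mean of 25%. A mean is not a median, so these medians cannot be set against it. The larger part lay between groups for 2 of the 85 members as deposited and for 10 after rescaling, against 12.7% and 21.4% of all genes. As deposited, IVF mouse 4 had the highest value for 67 of the 85 members, and IVF mouse 2 the lowest for 56 and FET mouse 4 for 21. After rescaling the highest values were spread over all mice, with FET mouse 2 leading for 21 members, while IVF mouse 2 and FET mouse 4 still had the lowest value for 30 and 22. Without these 2 libraries, and after rescaling, 0 members passed an adjusted p of 0.05 by limma in any comparison, and the medians were 0.08 in FET against NC, 0.19 in IVF against NC and -0.07 in FET against IVF. At an unadjusted p under 0.05, 12, 5 and 3 members passed in these 3 comparisons, against 17.6%, 8.04% and 8.48% of all genes.

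The 13 subunits encoded in mitochondrial DNA, which are built into the same complexes, summed to between 60569 and 469520 FPKM, 26.1 to 405.5 times the sum of the 96 nuclear genes. The lowest ratio was in IVF mouse 4 and the highest in FET mouse 4, with the other 7 mice between 68.6 and 134.7. None passed an adjusted p of 0.05 in any comparison by limma. At an unadjusted p, 6 of the 13 were lower in IVF and 3 in FET than in NC, and 0 passed between FET and IVF, where 2.86% and 10.1% of all genes were lower in IVF and FET than in NC. After rescaling 1 was lower in IVF and 0 in FET. Their median differences from NC were -1.25 in IVF and -0.68 in FET, and -0.90 and -0.04 after rescaling. In FET against IVF all 13 were positive on either scale, with medians of 0.715 and 1.009 after rescaling, though the groups overlapped for each. There 65.4% and 51.7% of all genes were negative, and the nuclear members had medians of -0.286 and 0.006. The NC mice themselves differed. In NC mice 1, 5 and 6, mt-Atp6 had 8200, 48202 and 44046 FPKM, and mt-Nd4l 5522, 18724 and 16927. For mt-Nd3 and mt-Co3, NC mouse 1 was instead the highest of the NC mice. In NC mice 5 and 6 the 3 most abundant non-coding genes held 3.49% and 5.03% of all FPKM, against 26.5% in NC mouse 1. NC mice 5 and 6 also stand apart from the other 7 mice in their sheet numbers. The part of NC mice 5 and 6 in the counts above was not tested.

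Other genes of the pathway were taken from written lists, and none of them passed an adjusted p of 0.05 by limma. Of 22 complex IV assembly genes, 17 were tested, and 3 were lower in FET than in NC at an unadjusted p under 0.05, or 2 after rescaling (10.1% and 9.15% of all genes). The largest difference among them was that of Coa6, a copper-delivery factor (adjusted p = 0.182 by limma). It had 22.6, 14.5 and 17.7 FPKM in NC and 0, 15.7 and 0 in FET. All 13 genes of the TCA cycle list, which supplies NADH and succinate, were tested, and 2 were lower at an unadjusted p, with a median of -0.66 beside -0.67 for the members. After rescaling 1 was lower, and the medians were -0.43 and -0.14. Among 13 regulators, 6 were tested and 0 passed an unadjusted p. The transcripts of NRF1 (Nrf1) and GABPA (Gabpa) had means of 0.24 and 0.66 FPKM and were not tested. Esrra, which encodes ERR alpha, had 2.42, 7.14 and 6.32 FPKM in NC, 0.90, 2.08 and 7.72 in IVF and 3.56, 2.98 and 1.18 in FET, with overlap between all groups.

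Genes for cytosolic ribosomal proteins, another set of short and abundant nuclear transcripts, had another pattern. In FET against NC, the median of the 76 tested was 0.11 as deposited and 0.75 after rescaling, where the members had -0.67 and -0.14. Their share of nuclear protein-coding FPKM was 7.30%, 5.83% and 5.60% in FET mice, above the 2.86% to 3.60% of NC mice. None of these genes passed an adjusted p of 0.05 by limma on either scale. At an unadjusted p under 0.05, 0 were higher as deposited and 32 of the 76 after rescaling (1.88% and 6.53% of all genes), and 1 and 50 lay above every NC mouse (1.98% and 9.99%). The difference between the 2 sets was not tested.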

How the data were processed

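The authors deposited FPKM values for 55335 genes of liver RNA from 9 mice. The submitters' processing notes list FastQC 0.11.5, STAR 2.5.3a, StringTie 1.3.1c and DESeq2 1.16.1. Genome build, annotation and strandedness are not given in the sources used here. Symbols came from GENCODE vM21 (GRCm38), which matched 55154 identifiers. FPKM depends on the RNA that fills the rest of a library, so values were also rescaled to a total of 1000000 FPKM on nuclear protein-coding genes.

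Differences were tested with limma 3.58.1 (R 4.3.3) on log2(FPKM + 1) over 6755 genes averaging 1 FPKM or more, in 1 model of 3 groups with a variance trend, two-sided, with Benjamini-Hochberg adjustment, and a fold change on this scale understates the change of low genes. The fit and the depth estimate, which used steps of up to 8 fragments with a tolerance of 2%, were tested on simulated data; the depth covers counting error only. The numbers shared by IVF-chow and FET-chow mice did not pair them.

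The members and lists were chosen with earlier results of these data known. Named by rule were the 3 highest members of each complex, its lowest and highest fold change, isoform sets, complex II, Cyc1, Cycs, and up to 5 members per comparison and direction whose groups did not overlap. Alternatives were a pseudocount of 0.1, no filter, a mean FPKM of at least 10, median-ratio, nuclear and quantile scaling, only the groups compared, a replicate block and leaving out each mouse. Leaving out 2 libraries was chosen after seeing the data.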

Additional observations from a re-analysis of the deposited data

How the results depend on the processing

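The count of members past an adjusted p of 0.05 was 0 in all 3 comparisons under every alternative run. The smallest adjusted p was 0.122 (FET against NC, median-ratio scaling). Leaving out each mouse in turn gave a range of -1.06 to -0.13 for the members' median in FET against NC, -1.003 to 0.48 in IVF against NC and -1.09 to 0.44 in FET against IVF. With median-ratio scaling the medians were -0.25, 0.05 and -0.21, against -0.14, -0.002 and -0.13 for all genes, and with quantile normalization -0.26, 0.01 and -0.21, against 0.003, -0.01 and 0.007. Of 102 values of named genes, 26 changed sign after rescaling to nuclear protein-coding genes, and none had passed the threshold; the cause was not tested. The replicate block for FET against IVF gave 0 members, a median of -0.29 and a smallest adjusted p of 0.519. The correlations of same-numbered mice were -0.13, 0.02 and -0.26, so the numbers did not pair the samples. With 2020000 to 2920000 fragments in FET mice, a gene of 1 FPKM rested on few fragments there, and a listing at 0 does not show that a transcript was absent.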
